A study of Mus musculus and Sus scrofa with 18 samples.

Results

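The nuclear-encoded respiratory chain subunits are the 87 genes described here, out of 55357 mouse genes counted in the striatum, 21876 of which are annotated as protein-coding. They are all protein-coding genes whose symbol starts with Ndufa, Ndufb, Ndufc, Ndufs, Ndufv, Uqcr, Cox4, Cox5, Cox6, Cox7, Cox8 or Atp5, plus Sdha, Sdhb, Sdhc, Sdhd and Cyc1. Assembly factors named Ndufaf and 13 pseudogenes or non-coding genes with matching names were left out. By name the members divide into 38 genes of complex I, 4 of complex II, 9 of complex III, 18 of complex IV and 18 of complex V. The rule itself uses no measured value.

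The respiratory chain sits in the inner mitochondrial membrane. Complexes I and II pass electrons from NADH and succinate to ubiquinone, complex III passes them on to cytochrome c, and complex IV hands them to oxygen. Complexes I, III and IV pump protons, and complex V, the ATP synthase, uses the proton gradient to make ATP. Most subunits are encoded in the nucleus and imported, and a small set is made inside the organelle from mitochondrial DNA. Striatal projection neurons, the cells most affected in Huntington's disease (HD), have a high demand for ATP, and reduced activity of several complexes has long been described in HD striatum.

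The samples are striata of 9 mice, 3 in each of 3 groups, with 1 mouse per RNA library. WT mice received AAV9 carrying a control gRNA without CasRx, an RNA-cutting Cas13 nuclease. Untreated HD 140Q-KI mice received AAV9-CasRx and the control gRNA, and treated HD 140Q-KI mice received AAV9-CasRx and the HTT gRNAs, delivered as the pairs gRNA1+2 and gRNA3+4. HD 140Q-KI mice are heterozygous for a knock-in in which the mouse exon 1 is replaced by exon 1 of human HTT, whose CAG repeat is expanded. Injections into the striatum were made at 6 months of age, and mice of this schedule were examined 1.5 months later. CasRx was expressed from the ubiquitous CAG promoter and the gRNAs from a U6 promoter, so the vectors were not restricted to a cell type. Because WT mice had no CasRx, an HD mouse differed from a WT mouse by both the mutant allele and the nuclease, and these cannot be told apart. In bulk tissue, fewer cells of a type and less RNA per cell cannot be told apart either.

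Library totals ranged from 27184356 to 32102121 counts. The targeted gene Htt lay between 182 and 191 CPM (counts scaled to a common library size) in WT, between 140.4 and 149.6 in untreated and between 130.5 and 139.7 in treated mice. All 3 groups were separate in Htt, although the fold change between treated and untreated mice was not called (adjusted p = 0.942, quasi-likelihood test of edgeR, adjusted by Benjamini-Hochberg, with called meaning an adjusted p under 0.05). By the same test Htt was called lower than WT already in untreated mice, which had no HTT gRNAs (log2 fold change −0.37, adjusted p = 0.00656). In treated mice the value against WT was −0.46 (adjusted p = 0.00425). These counts are per gene and do not separate the mutant from the wild-type allele. The paper measured mutant HTT mRNA by RT-qPCR and reported it lower in treated mice. Markers of striatal projection neurons were present in every library, with summed levels of 7233 to 9488 CPM in WT, 2355 to 2791 CPM in untreated and 3621 to 3675 CPM in treated mice. All 12 of them were called lower in untreated mice (against 6.10% of all genes) and 9 of 12 in treated mice (against 2.78%). Counts on Y-linked genes were present in the 3 WT libraries and in untreated replicate 1 and were 0 in the other 5 libraries, so sex is largely confounded with genotype. Choroid plexus markers, all 9 detected, summed to 3845 CPM in WT replicate 2, to 1244 and 1314 CPM in WT replicate 3 and treated replicate 3, and to between 37.8 and 248 CPM in the other 6 libraries. The part of sex and of choroid plexus tissue in the results was not tested beyond the values given beside them.

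The promoters of respiratory chain genes are known for binding sites of NRF1, of ETS factors such as GABP (NRF2), of YY1 and of the estrogen-related receptors. A RefSeq window of 250 bases before and 50 bases after a start site (GRCm38.p6) was found for 69 of the 87 members. The palindrome CGCATGCG (NRF1) was held by 9 of the 69 members (13%) and by 2.07% of 27025 genes with such windows. CCGGAAG (ETS) was held by 16 members (23.2%) and 9.93% of genes, AAGATGGC (YY1) by 10 members (14.5%) and 3.19% of genes, and TCAAGGTCA (estrogen-related receptors) by 2 members (2.90%), Sdhd and Atp5g3, and 0.466% of genes. Both strands were searched, ETS and YY1 matches overlapped in 1 window of the whole table, and the windows were not matched for base composition. A match is a string of letters and not a measured binding site.

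Printed here are the 250 bases before the start site of 5 genes, read 5′ to 3′ on the strand of the gene, with matches to any of the 4 motifs in capitals. Ndufs3 and Ndufb10 are 2 of the 3 members with called differences, and the 3 other genes are the members with an unadjusted P under 0.05 in untreated mice whose upstream window held an NRF1 or an estrogen-related receptor match.
Ndufs3 (GRCm38.p6, chr2:90904722-90904971, minus strand): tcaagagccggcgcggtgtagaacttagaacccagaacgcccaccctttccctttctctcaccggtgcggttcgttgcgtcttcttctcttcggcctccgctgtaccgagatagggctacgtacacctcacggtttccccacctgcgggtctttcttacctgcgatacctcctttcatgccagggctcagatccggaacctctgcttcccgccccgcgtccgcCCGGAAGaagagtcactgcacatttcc
Ndufb10 (GRCm38.p6, chr17:24724424-24724673, minus strand): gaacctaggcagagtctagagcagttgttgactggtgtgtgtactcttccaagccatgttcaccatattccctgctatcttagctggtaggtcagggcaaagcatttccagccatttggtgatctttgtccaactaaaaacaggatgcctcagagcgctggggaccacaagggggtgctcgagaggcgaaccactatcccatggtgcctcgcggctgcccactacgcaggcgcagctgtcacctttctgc
Atp5g2 (GRCm38.p6, chr15:102671048-102671297, minus strand): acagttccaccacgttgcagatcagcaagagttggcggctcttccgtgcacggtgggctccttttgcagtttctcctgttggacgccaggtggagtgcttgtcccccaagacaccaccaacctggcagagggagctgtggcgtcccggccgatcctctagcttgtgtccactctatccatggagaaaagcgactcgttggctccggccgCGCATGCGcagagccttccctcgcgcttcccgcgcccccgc
Atp5g3 (GRCm38.p6, chr2:73911327-73911576, minus strand): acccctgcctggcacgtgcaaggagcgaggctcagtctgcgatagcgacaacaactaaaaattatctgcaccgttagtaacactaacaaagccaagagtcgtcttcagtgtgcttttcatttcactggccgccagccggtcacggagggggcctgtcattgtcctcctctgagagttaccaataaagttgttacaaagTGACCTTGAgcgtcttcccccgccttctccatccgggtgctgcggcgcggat
Atp5l (GRCm38.p6, chr9:44920743-44920992, minus strand): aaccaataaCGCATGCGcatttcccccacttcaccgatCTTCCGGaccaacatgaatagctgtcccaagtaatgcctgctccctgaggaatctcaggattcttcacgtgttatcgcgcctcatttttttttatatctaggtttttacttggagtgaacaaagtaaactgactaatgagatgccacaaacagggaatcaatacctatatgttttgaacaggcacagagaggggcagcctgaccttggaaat
The ETS match of Ndufs3 starts 27 bases before the start site and the NRF1 match of Atp5g2 starts 41 bases before it. In Atp5g3 the estrogen-related receptor motif lies on the opposite strand, 52 bases before the start site. Atp5l holds an NRF1 match 241 bases and an ETS match 212 bases before the start site, and none of the 4 motifs was found before the start site of Ndufb10.

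Of the 87 members, 84 passed the filter on low counts, among 19463 genes tested. Cox7b2, a testis-enriched form of a complex IV subunit, had 2 to 10 counts per library, and Cox8c, another isoform known from testis, and a second gene identifier named Atp5o had none in any library. Of the 84 tested members 78 averaged at least 10 CPM, and the 6 below that level were Cox4i2, Cox6a2, Cox6b2, Cox7a1, Cox8b and Ndufa4l2. As a whole the members held 0.895%, 0.949% and 0.842% of the counts in WT, 0.856%, 0.853% and 0.793% in untreated mice, and 0.853%, 0.844% and 0.837% in treated mice. The HD mice lay below WT replicates 1 and 2, whereas WT replicate 3 lay among them.

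In the HD striatum nearly all subunit mRNAs lay slightly below WT. In untreated mice 77 of 84 members had a log2 fold change below 0 (91.7%, against 47.9% of all genes tested), with a median of −0.13 (−8.49% as a percent change, all genes 0.02). In treated mice 79 of 84 lay below 0 (94.0%, against 49.4%), with a median of −0.13 (all genes 0.00). Both comparisons use the same WT mice. The median standard error of a single member was 0.08 on the log2 scale in both comparisons, so that a difference of the median size did not pass the threshold for most members. Few members passed the test individually, with 3 of 84 called lower at an adjusted p under 0.05 in untreated mice (3.57%, against 6.10% of all genes) and 1 in treated mice (1.19%, against 2.78%), by the edgeR quasi-likelihood test and the Benjamini-Hochberg procedure. No member was called higher in either (0 of 84, against 4.58% and 0.904% of all genes), nor at an unadjusted P under 0.05 by edgeR. DESeq2 called 6 members in untreated and 2 in treated mice, all lower, and it called 17.9% and 10.2% of all genes in either direction. No member changed 2-fold with an unadjusted P under 0.05.

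At an unadjusted P under 0.05, 23 members were lower in untreated mice (27.4%, against 13.7% lower and 15% higher among all genes) and 13 in treated mice (15.5%, against 11.6% lower and 9.78% higher). The members are more abundant than most genes, with a median log2 CPM of 6.19 against 3.71, and their replicate spread is smaller, with a median within-group SD of 0.10 against 0.20 on the log2 scale. Among the 10584 genes with at least 10 CPM on average, 19% were lower at P under 0.05 in untreated and 17% in treated mice, whereas of the 78 members at that level it was 29.5% and 16.7%. The count in treated mice was therefore near that of genes of similar abundance. The medians over these abundant genes were −0.02 and −0.03, beside −0.13 over the 78 members in each comparison.

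**Figure D1:**
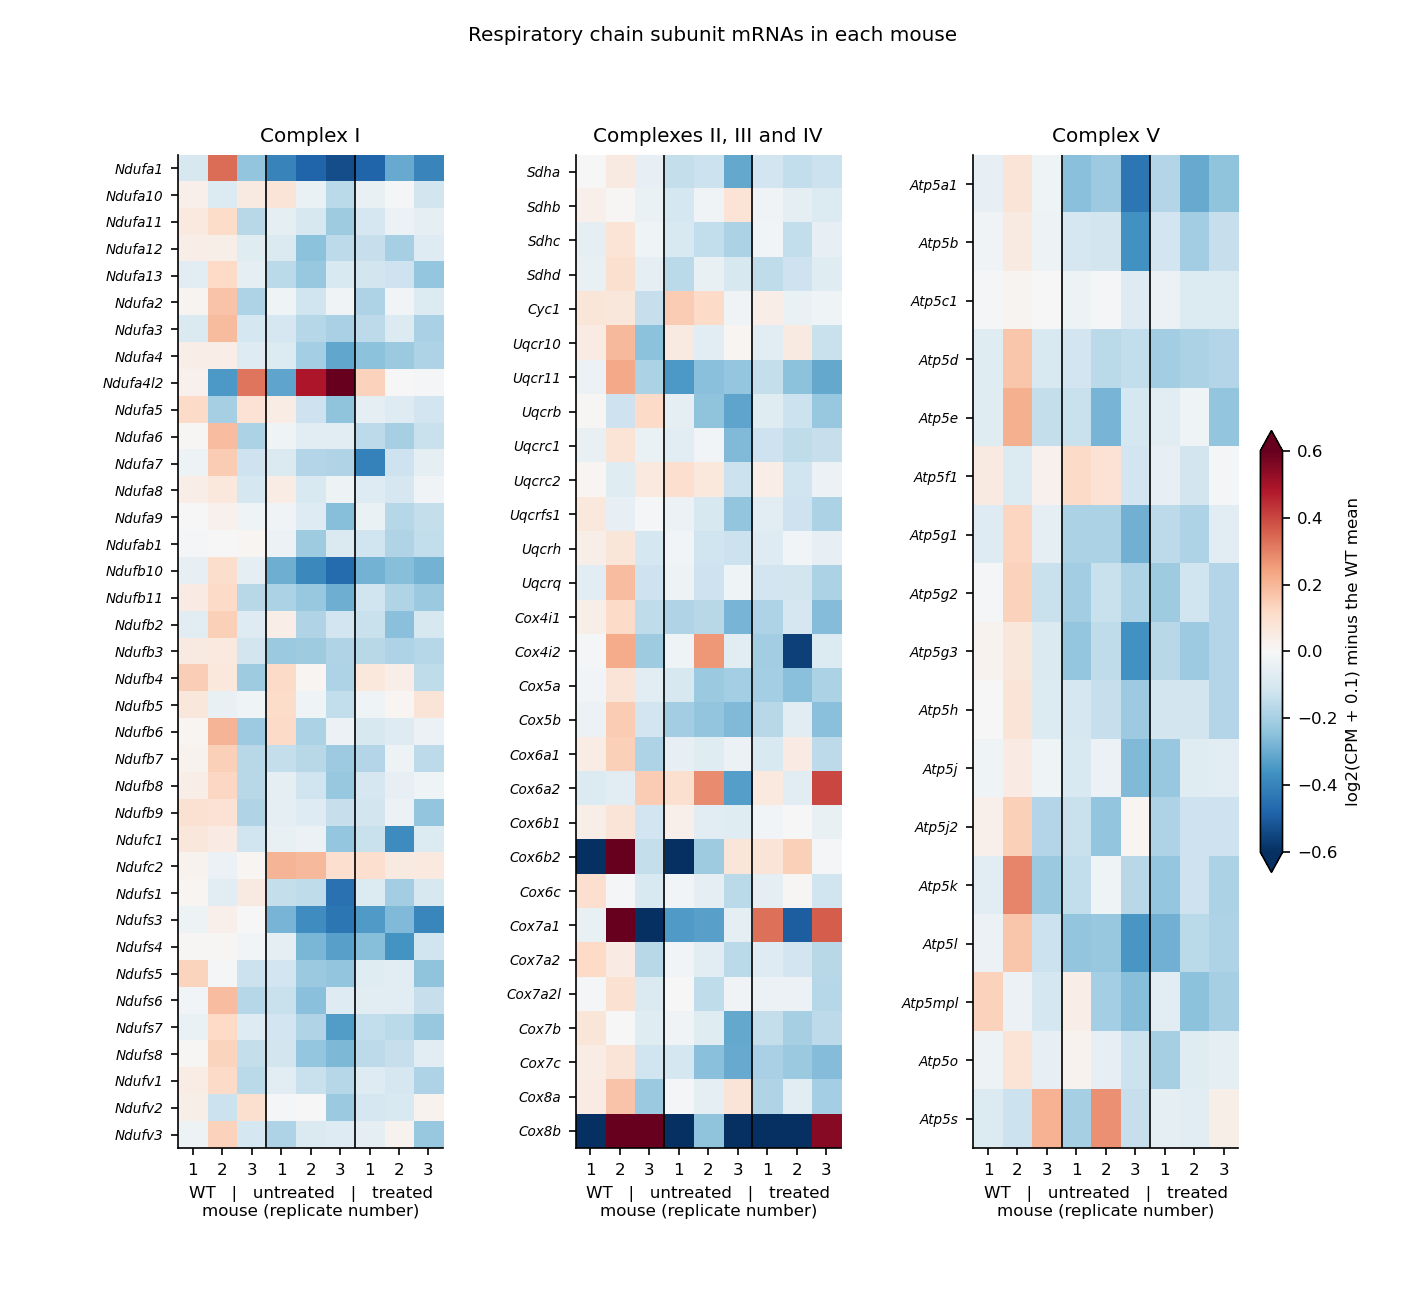
Each row is 1 of 83 of the 84 tested members and each column 1 mouse; the colour gives log2(CPM + 0.1) minus the mean of the 3 WT mice, with colours saturating at −0.6 and 0.6. WT replicate 2 was the highest of the 9 mice for 57 members and untreated replicate 3 the lowest for 39, and the most variable rows are Cox8b, Cox6b2, Cox7a1 and Ndufa4l2.

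The mice themselves were not evenly placed. WT replicate 2 had the highest level of the 9 mice for 57 of the 84 members, whereas untreated replicate 3 had the lowest for 39. Averaged over all members, the log2 level relative to the WT mean was −0.03, 0.11 and −0.08 in WT, −0.10, −0.12 and −0.18 in untreated mice, and −0.13, −0.14 and −0.11 in treated mice. By this mean the 6 HD mice lay below the 3 WT mice. The distance between WT replicate 3 and the nearest HD mouse, untreated replicate 1, was smaller than the range among the WT mice. Untreated replicate 1 was the only HD mouse with Y-linked counts. Over the 78 members with at least 10 CPM the mean was −0.09 in WT replicate 3 and −0.08 in untreated replicate 1, so these groups overlapped. By the median over members, WT replicate 3, at −0.09, lay below untreated replicate 1, at −0.08, and above the other 5 HD mice. Without WT replicate 2 the median was −0.08 in untreated and −0.09 in treated mice, and without WT replicate 3 it was −0.17 in both. Without untreated replicate 1, 2 or 3 the median in untreated mice was −0.17, −0.14 and −0.10 in this order. Microglial markers, all 6 detected, summed to 273 to 304 CPM in WT and 399 to 469 in treated mice, and to 638 CPM in untreated replicate 3 against 318 and 350.1 in the other untreated mice. The part of these markers in the lower subunit levels was not tested.

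Groups did not overlap and HD was lower for 26 members in untreated against WT (31.0%, against 15.1% of all genes) and for 30 members in treated against WT (35.7%, against 15.1%). For 20 members every one of the 6 HD mice lay below every WT mouse (23.8%, against 10.5% of all genes). These were spread over complexes I, II, IV and V, and 7 of them were complex V genes. In the opposite direction 1 member was separate in each comparison (1.19%, against 15% and 13.4%) and 1 for all 6 HD mice (against 8.19%), in each case Ndufc2. Groups separate more readily where replicate spread is small, as it is for the members. The shares of non-overlapping groups were not compared with genes of similar abundance or spread, so part of the excess over all genes may reflect that spread.

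**Figure D2:**
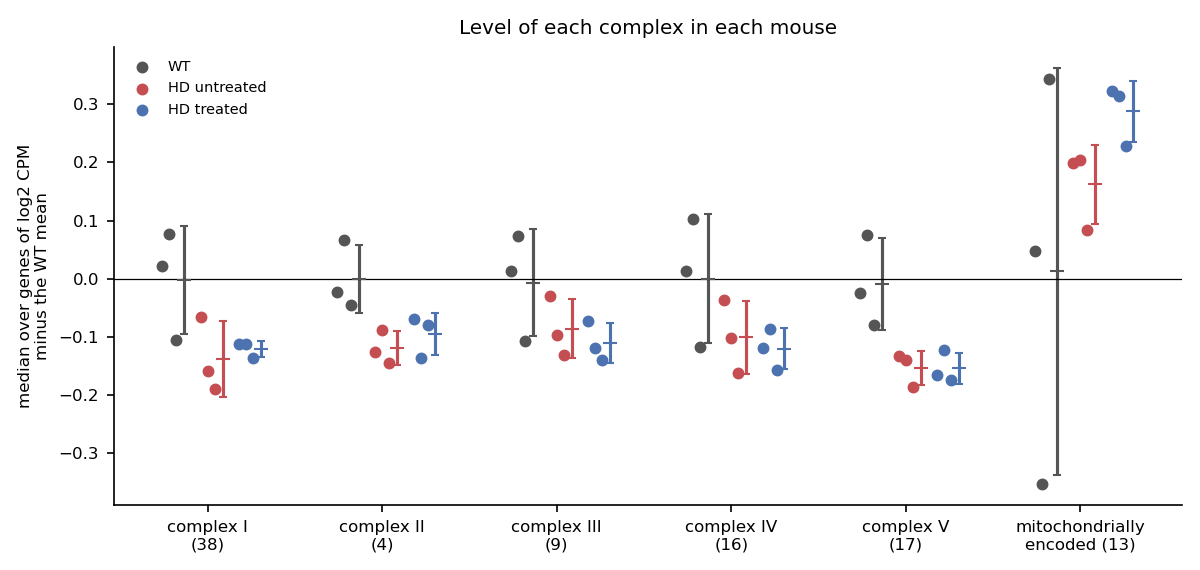
Points give, for each mouse, the median over the genes of a complex of log2 CPM minus the WT mean of each gene, and the bars beside them the group mean ± SD (n = 3 mice), with the number of genes in brackets. The 5 complexes lie between −0.19 and 0.10, whereas the mitochondrially encoded subunits spread from −0.35 to 0.34 within WT alone.

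The medians of the 5 complexes lay close together. The median log2 fold change was −0.13 for complex I, −0.12 for complex II, −0.09 for complex III, −0.11 for complex IV and −0.15 for complex V in untreated mice. In treated mice it was −0.13, −0.10, −0.13, −0.14 and −0.15 in the same order. All 17 tested complex V genes lay below WT in treated mice and 16 of 17 in untreated mice. The differences between complexes were smaller than the SD among WT mice, which ranged from 0.06 to 0.11 for the median level of a complex, and they were not tested.

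**Figure D3:**
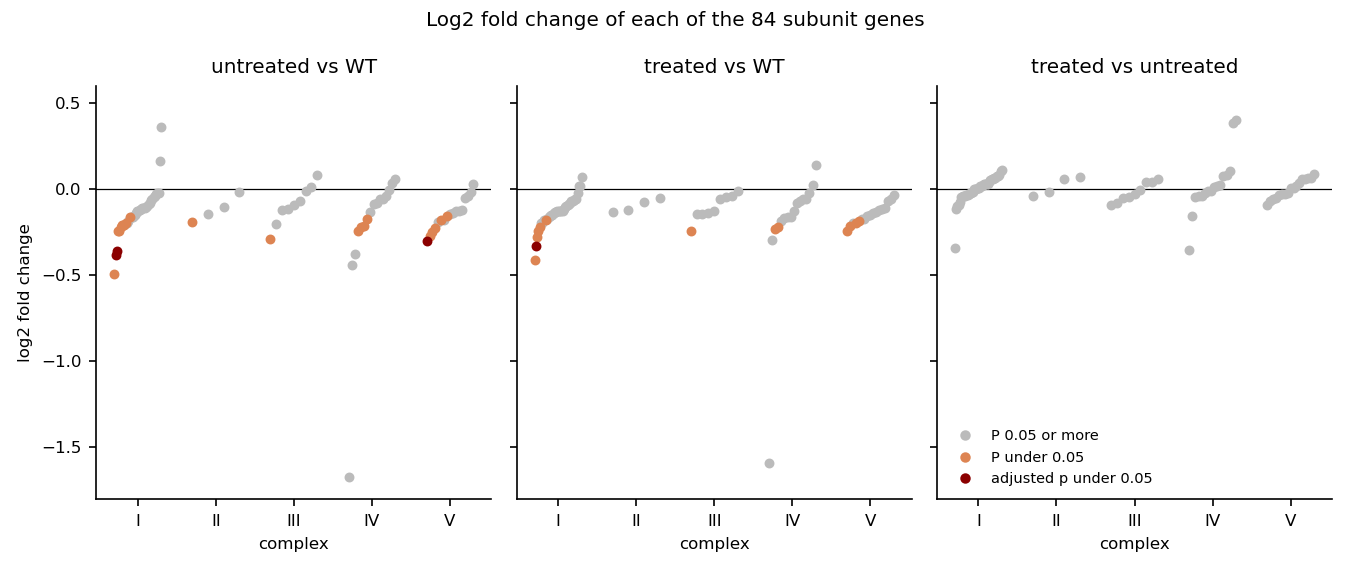
Each point is the log2 fold change of 1 of the 84 tested members, by complex and comparison, coloured by edgeR's unadjusted P and adjusted p. Adjusted p was under 0.05 for 3 members in untreated against WT, 1 in treated against WT and 0 in treated against untreated mice.

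In complex I, the NADH dehydrogenase, 2 of 38 genes were called lower in untreated mice (5.26%, against 6.10% of all genes) and 1 in treated mice (2.63%, against 2.78%). Ndufs3, a core subunit of its peripheral arm (ENSMUSG00000005510, chromosome 2), was counted at 90.9, 94.9 and 92.9 CPM in WT, at 76.6, 71.7 and 68.8 CPM in untreated and at 73.3, 77.3 and 70.9 CPM in treated mice. All HD mice lay below all WT mice, by a margin wider than the spread of any group. The log2 fold change was −0.36 (SE 0.06, adjusted p = 0.0111) in untreated and −0.33 (SE 0.06, adjusted p = 0.0261) in treated mice (edgeR, Benjamini-Hochberg). Ndufs3 fell by 22.1% in untreated mice, and in treated mice it fell by 20.5%. Among the mice with Y-linked counts, untreated replicate 1, at 76.6 CPM, also lay below the WT mice. With the share of Y-linked counts as a covariate the adjusted p by edgeR was 0.107 in untreated and 0.545 in treated mice. All WT mice and no treated mouse had Y-linked counts, so this covariate was told apart from group mainly by untreated replicate 1. The call in treated mice was lost in 6 of the 9 fits without 1 mouse, namely without WT replicate 2 or 3, untreated replicate 2 or any treated mouse, with adjusted p from 0.0548 to 0.138.

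Ndufb10, an accessory subunit of the membrane arm (ENSMUSG00000040048, chromosome 17), was at 109.3, 121.7 and 108.9 CPM in WT, 92.3, 86.5 and 82.2 CPM in untreated and 92.8, 94.8 and 93.0 CPM in treated mice. Here too the HD mice were all below WT, and the 3 treated mice were above the 3 untreated mice. The log2 fold change was −0.38 (SE 0.07, adjusted p = 0.0116) in untreated mice and −0.28 (SE 0.07, adjusted p = 0.0588) in treated mice. The call in untreated mice was lost with the share of Y-linked counts as a covariate (adjusted p = 0.103) and with only the 2 groups in the fit (adjusted p = 0.0553). In treated relative to untreated mice it was 0.10 (SE 0.07, adjusted p = 0.958), so the order of those groups was not distinguishable from replicate error.

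Ndufa1, a small X-linked membrane-arm subunit (ENSMUSG00000016427), had the largest difference among members above 10 CPM. It was at 33.8, 45.5 and 30.5 CPM in WT, 27.3, 25.8 and 24.9 CPM in untreated and 25.8, 29.2 and 27.4 CPM in treated mice. The groups did not overlap, although WT replicate 2 stood well above the other WT mice. The log2 fold change was −0.49 (SE 0.14, adjusted p = 0.054) in untreated and −0.41 (SE 0.14, adjusted p = 0.130) in treated mice, neither called. Without WT replicate 2 the value in untreated mice was −0.30. The other X-linked members, Ndufb11 and Cox7b, had log2 fold changes of −0.24 and −0.13 in untreated mice.

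Ndufs1, a core subunit of complex I which carries several iron-sulfur clusters, was at 129, 122 and 133 CPM in WT, 116, 115 and 93.6 CPM in untreated and 120.6, 110.4 and 119.7 CPM in treated mice. It is an example of a gene whose lowest value came from untreated replicate 3, with an adjusted p of 0.11, although all HD mice lay below all WT mice.

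Ndufc2, an accessory membrane-arm subunit, was the single member higher in all HD mice than in all WT mice. It was at 29.1, 28.0 and 28.9 CPM in WT, 33.0, 32.8 and 30.8 CPM in untreated and 30.7, 29.8 and 29.9 CPM in treated mice. The log2 fold change was 0.17 in untreated (adjusted p = 0.176) and 0.07 in treated mice (adjusted p = 0.621), and neither was called. Ndufa4, named for complex I but found in complex IV, was at 159, 159 and 146.3 CPM in WT, 146.2, 134 and 125 CPM in untreated and 130.3, 132 and 136 CPM in treated mice, with all HD mice below all WT mice and adjusted p of 0.111 and 0.124. Its paralog Ndufa4l2, known for induction by hypoxia and for expression in pericytes, was at 2.12, 1.61 and 2.63 CPM in WT, 1.65, 2.96 and 3.57 CPM in untreated and 2.30, 2.08 and 2.07 CPM in treated mice. The groups overlapped, and the log2 fold change of 0.36, the largest positive value among members in untreated mice, had an adjusted p of 0.467. Markers of pericytes and mural cells, all 8 detected, summed to 205 to 223 CPM in WT and 229.7 to 269.6 CPM in untreated mice, with the highest sum in untreated replicate 3, which also had the highest Ndufa4l2. In treated mice these markers summed to 250.6, 258.6 and 229.96 CPM, in the range of the untreated mice, whereas Ndufa4l2 lay in the range of WT.

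Complex II, succinate dehydrogenase, is encoded by the nucleus alone. Sdha, its flavoprotein, was at 384, 399 and 371 CPM in WT, 348, 351 and 310.4 CPM in untreated and 355, 347 and 351 CPM in treated mice. All HD mice lay below all WT mice, with log2 fold changes of −0.19 (adjusted p = 0.111) and −0.13 (adjusted p = 0.323). Sdhb, the iron-sulfur subunit, was at 83.8, 82.6 and 80.0 CPM in WT, 76.3, 80.9 and 87.0 CPM in untreated and 80.8, 79.2 and 77.5 CPM in treated mice. The untreated mice spanned the WT range, and of the treated mice only replicate 1 reached into it. The membrane anchor Sdhc was at 70.6, 77.6 and 72.1 CPM in WT, 68.9, 66.2 and 64.2 CPM in untreated and 72.5, 66.3 and 70.8 CPM in treated mice, with the untreated mice all below WT. Sdhd, the other anchor, was at 58.3, 64.4 and 57.9 CPM in WT, 53.8, 58.2 and 56.2 CPM in untreated and 54.1, 55.1 and 57.1 CPM in treated mice. None of the 4 was called in any comparison, and Sdha in untreated mice was the single complex II value with an unadjusted P under 0.05.

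Complex III, the cytochrome bc1 complex, had the smallest median difference in untreated mice. Of its 9 genes 7 lay below 0 in untreated and 9 in treated mice, and none was called. Uqcr11, a small accessory subunit, was the member with an unadjusted P under 0.05 in each comparison with WT, at 63.5, 76.3 and 57.2 CPM in WT, 51.4, 54.7 and 55.4 CPM in untreated and 59.0, 54.9 and 52.7 CPM in treated mice. The untreated mice lay below all WT mice, the treated mice overlapped WT replicate 3, and neither difference was called (adjusted p = 0.106 and 0.218). Cyc1, cytochrome c1, was near the other end of the range, with log2 fold changes of 0.08 and −0.01.

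Complex IV, cytochrome c oxidase, contains most of the tissue-specific isoforms of the chain. The common isoforms were abundant, and none was called in any comparison. Cox4i1 was at 421, 444 and 369.7 CPM in WT, 362, 366 and 338 CPM in untreated and 361, 382 and 342 CPM in treated mice. Untreated mice were all below WT (log2 fold change −0.21, adjusted p = 0.137), and treated mice overlapped WT. Cox6a1 was at 319, 342 and 273 CPM in WT, 299, 295 and 302 CPM in untreated and 291, 321 and 278 CPM in treated mice. Cox6b1 was at 100.3, 103 and 90.3 CPM in WT, 99.98, 93.6 and 92.9 CPM in untreated and 96.8, 97.9 and 94.7 CPM in treated mice. Both sets overlapped, with log2 fold changes between −0.07 and −0.02.

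Cox7a2 was at 72.5, 69.2 and 59.4 CPM in WT, 66.1, 63.8 and 59.7 CPM in untreated and 63.2, 61.8 and 59.6 CPM in treated mice, and its relative Cox7a2l, which takes part in supercomplexes, was at 109, 116 and 103, then 109, 98.3 and 108, then 107, 107 and 96.8 CPM in the same order. Cox7b was at 102, 96.8 and 92.1 CPM in WT, 95.2, 92.0 and 78.1 CPM in untreated and 87.5, 84.2 and 86.9 CPM in treated mice. In Cox7b the treated mice lay below all WT mice, with an adjusted p of 0.270. Cox8a was at 225, 244 and 186 CPM in WT, 215, 209 and 229 CPM in untreated and 192, 207 and 188 CPM in treated mice. WT replicates 2 and 3 were its highest and lowest values, outside all 6 HD mice.

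Among the abundant complex IV genes, the largest differences in treated mice were those of Cox5a and Cox7c, and the largest in untreated mice was that of Cox5b (log2 fold change −0.24, adjusted p = 0.0894), with untreated mice all below WT. Cox5a, a matrix-side subunit, was at 84.7, 90.4 and 82.0 CPM in WT, 80.2, 73.4 and 74.3 CPM in untreated and 74.3, 71.9 and 75.0 CPM in treated mice. Cox7c, a small membrane subunit, was at 123, 126 and 109.7 CPM in WT, 110.6, 100.2 and 96.7 CPM in untreated and 104, 102 and 99.5 CPM in treated mice. Treated mice were all below WT for both, with log2 fold changes of −0.22 (adjusted p = 0.0970) and −0.23 (adjusted p = 0.122), and neither was called.

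The minor isoforms of complex IV were low and variable. Cox4i2, a form linked to oxygen sensing and found in lung and in mural cells, was at 1.74, 2.06 and 1.5 CPM in WT, 1.72, 2.12 and 1.66 CPM in untreated and 1.5, 1.15 and 1.65 CPM in treated mice. Cox6a2, known from muscle and from certain interneurons, was at 5.63, 5.69 and 6.65 CPM in WT, 6.38, 7.29 and 4.72 CPM in untreated and 6.22, 5.70 and 7.91 CPM in treated mice. Cox7a1, also a muscle form, was at 0.756, 1.32 and 0.465 CPM in WT, 0.596, 0.605 and 0.747 CPM in untreated and 1.01, 0.527 and 1.03 CPM in treated mice. None of these 3 was called in any comparison, and each had overlapping groups except Cox4i2, whose treated mice lay below the untreated mice. Parvalbumin interneuron markers, all 4 detected, summed to 247.6 to 369.5 CPM in WT and 340.5 to 460.0 CPM in untreated mice, and muscle markers, 8 genes in all, to no more than 16.5 CPM in any library. Cox6b2, a testis-enriched form, was at 1.96, 5.47 and 2.83 CPM in WT, 1.58, 2.69 and 3.30 CPM in untreated and 3.31, 3.46 and 3.10 CPM in treated mice, and 5 of the 6 HD mice lay within the WT range.

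Cox8b, the muscle form of a small complex IV subunit, had the largest fold changes of all members. It had 0, 51 and 23 counts in WT, 7, 11 and 6 counts in untreated and 2, 3 and 22 counts in treated mice. The 3 libraries with the most Cox8b counts, WT replicates 2 and 3 and treated replicate 3, were the 3 with the highest sums of choroid plexus markers. The remaining libraries did not follow the order of these sums. Treated replicate 1, with 248 CPM of the markers, had 2 Cox8b counts, and untreated replicate 2, with 50.6 CPM, had 11. The log2 fold change was −1.67 (SE 1.15, adjusted p = 0.374) in untreated and −1.59 (SE 1.13, adjusted p = 0.456) in treated mice, neither called. The part of choroid plexus tissue in this pattern was not tested. With a within-group SD of 1.68 on the log2 scale it was the most variable member.

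**Figure D4:**
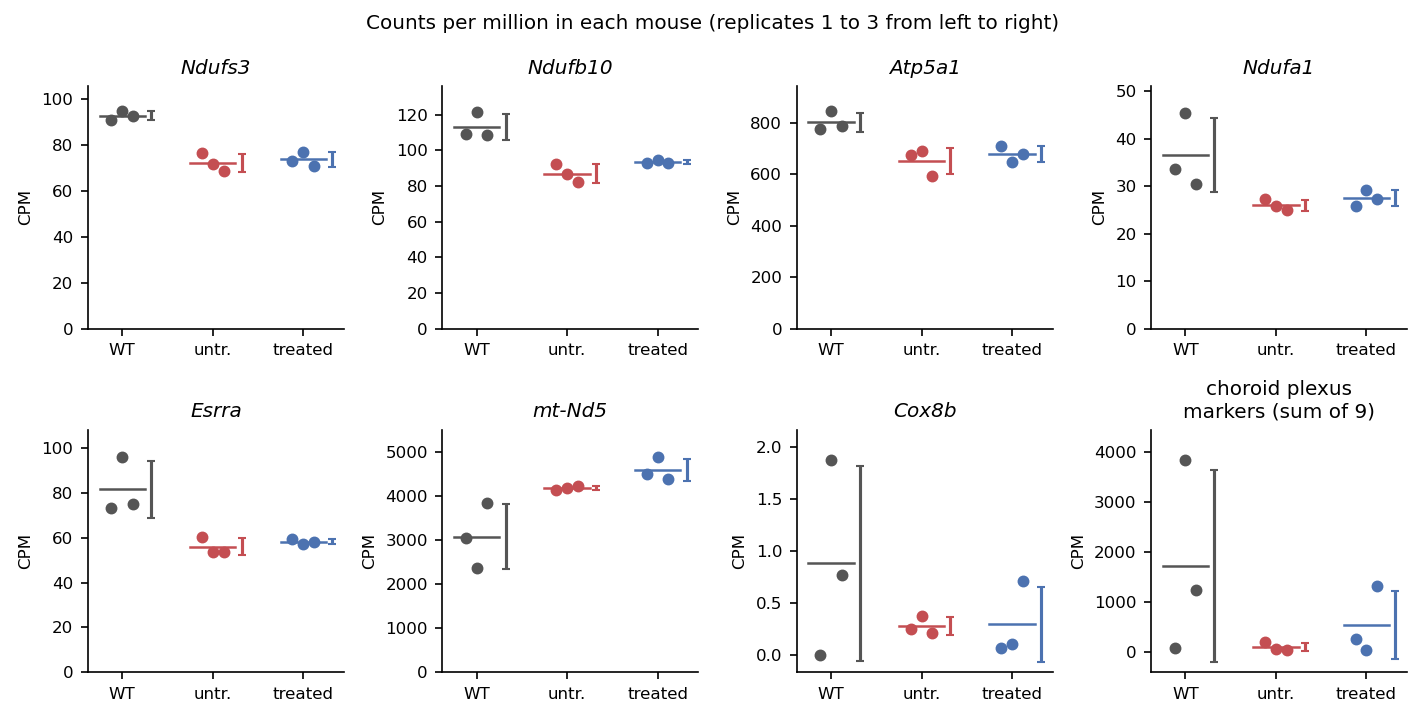
CPM of 6 named genes, of Cox8b and of the summed 9 choroid plexus markers in each mouse, with points in replicate order, lines at the group means and error bars of 1 SD (n = 3 mice per group). HD mice lie below WT for Ndufs3, Ndufb10, Atp5a1, Ndufa1 and Esrra and above it for mt-Nd5, and Cox8b is highest in the 3 libraries with the most choroid plexus markers.

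Complex V had the lowest median in both comparisons. Atp5a1, the alpha subunit of the catalytic head (ENSMUSG00000025428, chromosome 18), was at 774, 844 and 786 CPM in WT, 673, 688 and 594 CPM in untreated and 708, 649 and 678 CPM in treated mice. All HD mice were below all WT mice. The log2 fold change was −0.30 (SE 0.08, adjusted p = 0.0494) in untreated and −0.24 (SE 0.08, adjusted p = 0.135) in treated mice. The call in untreated mice was just under the threshold and was lost in each of the 9 fits that left out 1 mouse, with adjusted p from 0.0558 to 0.135.

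The 3 genes that encode the same mature c subunit of the rotor ring were compared as isoforms. Atp5g1 was at 118, 136 and 119.9 CPM in WT, 109, 109 and 102 CPM in untreated and 112, 109 and 119 CPM in treated mice. Atp5g2 was at 61.1, 67.5 and 55.9 CPM in WT, 53.0, 56.0 and 53.9 CPM in untreated and 53.0, 56.5 and 54.3 CPM in treated mice. Atp5g3 was at 143, 148 and 132 CPM in WT, 119.7, 127 and 109.3 CPM in untreated and 126, 121 and 125 CPM in treated mice. The log2 fold changes in untreated mice were −0.22, −0.18 and −0.25, with adjusted p of 0.0811, 0.167 and 0.0555. Untreated mice were all below WT for Atp5g1 and Atp5g3, and Atp5g3 was also separate from WT in treated mice. Atp5l, a subunit of the membrane part with both an NRF1 and an ETS match upstream, had log2 fold changes of −0.27 (adjusted p = 0.0688) and −0.22 (adjusted p = 0.183).

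Delivery of the HTT gRNAs was compared with the control gRNA in HD mice, both with CasRx. No member was called in either direction (0 of 84, as for all genes, 0 and 0), and none had an unadjusted P under 0.05 by edgeR (against 2.5% higher and 3% lower among all genes) or by DESeq2, which called 48 genes in all. The median log2 fold change was 0.00 (all genes −0.01), with 40 of 84 members below 0 (47.6%, against 53.7%). Groups did not overlap for 2 members higher in treated mice (2.38%, against 6.92% of all genes), Ndufb10 and Atp5g1, and for 5 lower (5.95%, against 8.83%), Cox8a, Cox4i2, Ndufc2, Ndufa6 and Atp5d. By complex the medians were 0.01, 0.02, −0.03, 0.00 and 0.01 from complex I to V. Of the 78 members above 10 CPM, all had 95% confidence intervals inside −0.5 to 0.5 on the log2 scale, from −0.37 at the lowest bound to 0.39 at the highest.

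The 4 members with the smallest P between treated and untreated mice were Cox8a with a log2 fold change of −0.15 (adjusted p = 0.954), Ndufb10 with 0.10, Cox4i2 with −0.35 (adjusted p = 0.962) and Ndufc2 with −0.09 (adjusted p = 0.988). The largest rise in value was that of Cox7a1, at 0.40 with 14 to 36 counts per library (adjusted p = 0.995). None of these was distinguishable from replicate error. Projection neuron markers, which were further apart in the same mice, had 11 of 12 genes higher at an unadjusted P under 0.05 (against 2.5% of all genes) and none called.

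Most of the 13 subunits encoded in mitochondrial DNA had log2 fold changes above 0, but the WT mice spread over more than the HD range. Their median log2 fold change was 0.16 in untreated and 0.25 in treated mice relative to WT, and 0.12 in treated relative to untreated mice, with 10, 13 and 13 of 13 above 0. By the median over the 13 genes, WT replicate 3, at 0.34 relative to the WT mean, lay above all 6 HD mice. None was called in any comparison by edgeR. By the same test 2, 3 and 0 of the 13 were higher at an unadjusted P under 0.05. Among all genes the share higher at that level was 15% in untreated and 9.78% in treated mice relative to WT. mt-Nd5, a proton-pumping subunit of complex I, was at 3036, 2368 and 3834 CPM in WT, 4129, 4185 and 4214 CPM in untreated and 4498, 4874 and 4386 CPM in treated mice. Its groups did not overlap, with log2 fold changes of 0.44 (adjusted p = 0.0976) and 0.57 (adjusted p = 0.0743). mt-Cytb, the cytochrome b of complex III, had the smallest P between treated and untreated mice, with 0.19 (adjusted p = 0.923). For 9 of the 13 all treated mice lay above all untreated mice (against 6.92% of all genes). For 3 of 13 in each comparison with WT all HD mice of the group lay above WT (against 15% and 13.4%). These 13 genes were counted in the same libraries and are not independent replicates. WT replicate 2 had both the lowest sum of the 13 genes, 46770 CPM against 57663 and 68933 in the other WT mice, and the highest level of most nuclear members. The sums were 64015 to 64988 CPM in untreated and 67978 to 72605 CPM in treated mice, so that WT replicate 3 lay above all untreated mice and above treated replicate 3.

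Regulators and partners of the chain were counted alongside. Of 13 biogenesis regulators, 2 were called lower in untreated mice (against 6.10% of all genes) and 1 in treated mice (against 2.78%), and no alternative fit was made for this list. Esrra, the estrogen-related receptor alpha that activates respiratory chain genes, was at 73.2, 96.0 and 75.1 CPM in WT, 60.4, 53.7 and 53.7 CPM in untreated and 59.2, 57.1 and 58.2 CPM in treated mice. It fell by 0.54 (SE 0.11, adjusted p = 0.0150) in untreated and by 0.49 (SE 0.10, adjusted p = 0.0383) in treated mice on the log2 scale. Ppargc1b, a coactivator of the same pathway, was at 12.2, 15.2 and 11.2 CPM in WT, 7.40, 9.34 and 7.81 CPM in untreated and 9.81, 6.82 and 9.30 CPM in treated mice, and fell by 0.65 in untreated mice (SE 0.18, adjusted p = 0.0491). All HD mice lay below all WT mice for both genes. Polrmt, the mitochondrial RNA polymerase, had the smallest P of this list between treated and untreated mice, with 0.14 (adjusted p = 0.954).

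Of 48 tested assembly factors, 24 lay below 0 in untreated mice (50%, against 47.9% of all genes). The median was 0.00, beside −0.13 for the subunits. In untreated mice 1 of the 48 was called, lower (against 6.10% of all genes), namely Ecsit, an assembly factor of complex I. Ecsit was at 39.6, 42.4 and 41.2 CPM in WT, 30.9, 32.4 and 30.2 CPM in untreated and 34.0, 33.1 and 32.9 CPM in treated mice. It fell by 0.40 in untreated mice (adjusted p = 0.0120), and the value in treated mice was −0.30 (adjusted p = 0.0537). Cox20, an assembly factor of complex IV, had the smallest P between treated and untreated mice, with 0.42 (adjusted p = 0.886).

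Of 15 genes of the citric acid cycle and its entry, 10 lay below 0 in untreated and 11 in treated mice. These were 66.7% and 73.3%, against 47.9% and 49.4% of all genes, with medians of −0.15 and −0.10. In untreated mice 1 of the 15 was called, lower (against 6.10% of all genes). This was Ogdh, the 2-oxoglutarate dehydrogenase, at −0.25 (adjusted p = 0.0478 by edgeR). Ogdh was at 287, 325 and 301 CPM in WT against 258, 260.2 and 251 CPM in untreated mice. In treated mice Ogdh was at 277, 259.7 and 272 CPM. There Dlst, a partner of Ogdh, had the smallest P of the list, with −0.19 (adjusted p = 0.113), and Pdhb in treated relative to untreated mice, with 0.08 (adjusted p = 0.987). None of 4 tested electron carriers was called. In untreated mice 1 was lower at an unadjusted P under 0.05 (against 13.7% of all genes). Etfa, which feeds electrons from fatty acid oxidation, had the smallest P against WT, with −0.25 (adjusted p = 0.0869) and −0.17 (adjusted p = 0.270). Etfdh had the smallest P between treated and untreated mice, with 0.13 (adjusted p = 0.994).

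Other markers measured in the same libraries included astrocyte markers, which summed to 3791 to 4390.4 CPM in WT, 3876 to 4283 CPM in untreated and 3892 to 4379.7 CPM in treated mice, and oligodendrocyte markers, which summed to 9190.0 to 10095 CPM in WT, 7151 to 7839 CPM in untreated and 7575 to 11444 CPM in treated mice. Pan-neuronal markers summed to 5251 to 6576 CPM in WT, 6288 to 7504 CPM in untreated and 5809.7 to 6146 CPM in treated mice. Of 8 tested T and B cell markers, 4 were called higher (against 4.58% of all genes) and 1, Cd4, lower (against 6.10%) in untreated mice. In treated mice 2 were called higher (against 0.904%) and Cd4 lower (against 2.78%). In each comparison with WT 7 of the 8 had log2 fold changes above 0, with list medians of 6.81 and 5.64. The sums over 10 genes were 63.5 to 80.7 CPM in WT, 28.4 to 159 in untreated and 92.8 to 154 in treated mice. Nearly all of the WT sums was Cd4, at 62.6, 79.8 and 73.5 CPM. The other markers of this list were therefore near 0 in WT, and the list medians rest on those low WT values. Cd4 was at 14.5 to 21.8 CPM in untreated and 31.5 to 32.5 CPM in treated mice. The red blood cell markers summed to 107 to 190.0, 3.09 to 67.3 and 2.77 to 51.5 CPM in the same order of groups. The part of cell type composition in the subunit levels was not tested.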

How the data were processed

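The authors reverse-transcribed polyadenylated striatal RNA from an oligo-dT primer for 3′ sequencing and deposited raw read counts per Ensembl gene for 9 mice, without normalization. The study's methods name STAR, whereas the submitters' processing notes name Trimmomatic 0.39, HISAT2 2.2.1 and featureCounts 2.0.1. The mouse build and the use of molecular identifiers are not given in the sources used here. The 3′ counts do not measure isoforms of 1 gene, and reads of pseudogene copies may be split. No count column was left unmapped (0), and the pig counts were not used here.

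Gene types and chromosomes came from GENCODE M21 (52081 of 55357 identifiers matched) and promoter windows from RefSeq (GRCm38.p6). Tests on the counts used edgeR 4.0.16 (R 4.3.3). After filterByExpr and TMM scaling, all 9 libraries were fitted by group with glmQLFit (6 residual degrees of freedom) and compared with glmQLFTest, with Benjamini-Hochberg adjustment over all 19463 genes. A gene was called at an adjusted p under 0.05. CPM used TMM-scaled library sizes. Levels of a complex used log2 CPM with a prior count of 2. Each standard error was derived from the fold change and its F statistic. P-values measure the spread between 3 mice a group.

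The members and lists were chosen with earlier results of these data known. Members with values in every mouse were the 4 with the smallest P and the largest rise and fall (mean of at least 10 counts) in each comparison, the tested isoforms and the Sdh genes. Ndufs1, Ndufb11, Uqcr11, Cox5b, Cyc1, Atp5l and Ppargc1b were named after their values were seen. Alternatives were library size scaling, DESeq2 1.42.0, no filter, a filter of 10 counts in every library, a fit of the compared groups alone, a replicate block, a covariate for Y-linked counts, a prior count of 0.5 for complex levels, and each mouse left out in turn. The fit was tested on simulated data. 1 member is counted in the totals and not reported by name here. Figures were drawn with matplotlib 3.10.9.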

Additional observations from a re-analysis of the deposited data

How the results depend on the processing

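The median log2 fold changes of the members kept their sign and moved by less than the replicate spread in every alternative against WT, from −0.17 to −0.08 in untreated and −0.17 to −0.07 in treated mice, and those for the HTT gRNAs against the control gRNA ran from −0.03 to 0.05. Library size scaling without TMM factors shifted the median of all genes to 0.07 and 0.06, beside −0.08 and −0.07 for the members. Counts depended on the processing. Against WT, members at an unadjusted P under 0.05 in untreated mice were 11 with library size scaling, 12 with only the 2 groups in the fit, 9 with the Y-linked covariate and 12 to 32 with each mouse left out. The counts of called members were 6 with DESeq2, 1 with only the 2 groups, 0 with the Y-linked covariate and 2 to 5 with each mouse left out; only Ndufs3 and Ndufb10 were called in each of the latter fits, and without WT replicate 3 Ndufa1, Ndufb3 and Ndufb11 were added. In treated mice called members were 0 with library size scaling, with no filter and with the Y-linked covariate, 2 with DESeq2 and 0 to 2 with each mouse left out; members at P under 0.05 were 6 with library size scaling, 1 with the Y-linked covariate and 6 to 28 with each mouse left out, the 28 without WT replicate 3. Between treated and untreated mice 1 member reached P under 0.05 with only the 2 groups in the fit, and 0 to 1 with each mouse left out. The cause of these differences was not tested. The fits of 2 groups and those without 1 mouse also held fewer samples. Among all genes, 10.7% were called in either direction in untreated and 3.69% in treated mice in the main fit. In untreated mice this share was 17.9% with DESeq2, 3.89% with only the 2 groups and 4.57% to 12.9% with each mouse left out. In treated mice it was 10.2% with DESeq2, 1.03% with no filter and 0.683% to 6.96% with each mouse left out. Library size scaling gave 10.6% and 2.82%. Shares of all genes at P under 0.05 were not computed for these fits. With the Y-linked covariate all genes called numbered 457 and 5, against 2080 and 718 in the main fit. That fit tells the covariate apart from group mainly by untreated replicate 1. Signs turned for Ndufa4l2 in untreated mice, at −0.17 with the Y-linked covariate, and for Cox6a2 in treated mice, at −0.006 without treated replicate 3, against 0.09 to 0.24 without each other mouse. Correlations of same-numbered mice were from −0.08 to 0.24. Differently numbered mice were not correlated for reference, so these values cannot decide whether the numbers pair the mice. With a replicate block 2, 1 and 0 members were called and 21, 13 and 0 had P under 0.05. With 3 mice a group, differences in single subunits of the size of the median could not be detected.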

Other observations

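The WT mice differed from one another along mRNA length. Over the 78 members with at least 10 CPM, whose longest coding transcript had a median of 913 bases, the Spearman correlation of length with the difference from the WT mean was −0.10, −0.42 and 0.58 in WT replicates 1, 2 and 3. The HD mice lay between −0.17 and 0.34. Over 10302 protein-coding genes of that level the values were 0.02, −0.24 and 0.25 in WT and between −0.05 and 0.10 in the HD mice. These values are across genes, which are not independent replicates, and share the libraries and the WT mean. WT replicate 2, in which short subunit mRNAs were relatively high, was also the library with the most choroid plexus markers, the lowest mitochondrially encoded counts and the highest level of 57 members, and leaving it out brought the number of members at an unadjusted P under 0.05 from 23 to 12 in untreated and from 13 to 6 in treated mice. The counts were as low, or nearly so, without some other mice, at 12 without untreated replicate 3 and 14 without untreated replicate 2 in untreated mice, and at 6, 6 and 7 without treated replicates 1, 2 and 3 in treated mice. Without WT replicate 2 the share of all genes called in either direction also went down, from 10.7% to 4.57% in untreated and from 3.69% to 1.55% in treated mice. Whether RNA length, dissection or another property of this library contributes was not tested.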
